A study of Mus musculus with 22 samples.

Results

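At 192 tiles, non-overlapping windows of 100 bp, the DNA methylation level differed widely between control forebrains. These variable tiles were chosen by the measured control levels themselves. A tile on chromosomes 1 to 19 was taken when it held at least 2 CpGs with a coverage of 10 or more in all 6 controls and in at least 10 EtOH-exposed samples, at least 30 CpG reads in every control, and an SD of the level over the 6 controls of at least 12 percentage points. Of 114430 tiles analysed in the series, 42168 met the coverage terms and could have been variable, and 192 of these reached the SD limit, which is 0.455% of them. The control SD, range and order described below are therefore a description of what the rule selected on, and only the EtOH-exposed samples, the position and the sequence of the tiles were not used by it, apart from the coverage asked of the EtOH-exposed samples.

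The samples were forebrains of wild-type C57BL/6 embryos collected at embryonic day (E) 10.5, 1 embryo and 1 library per sample. The 16 EtOH-exposed samples came from dams given ethanol under the skin before implantation, at E2.5, as a pair of injections separated by 2 h and each of 2.5 g/kg. The 6 controls came from dams given saline. According to the methods the controls came from 3 litters, with 3 males and 3 females, and the EtOH-exposed embryos from 6 litters, with 8 males and 8 females, all without visible defects. The labels assign neither litter nor sex to a sample, and sex was not inferred from the reads. The spread between embryos was therefore not split by either, and embryos of a litter are not independent. C57BL/6 is an inbred strain, so embryos share nearly the same genome sequence. The tissue was read in bulk, so a change of methylation within cells and a change in the mix of cells cannot be told apart.

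DNA methylation here is the addition of a methyl group to the cytosine of a CpG, and a level of 50% means that the cytosine was read as methylated in 50% of the reads. Regions whose level is set early in development and then differs between genetically alike individuals, while cells of an individual stay alike, are called metastable epialleles, the best known in the mouse being retrotransposon insertions at the agouti and Axin1 genes. Imprinting control regions are methylated on the copy inherited from a single parent, and so lie at an intermediate level in ordinary tissue. A reduced representation library reads the ends of fragments cut by the enzyme MspI at CCGG, so a tile is read through few fragments.

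The sequences of 6 examples follow. They are the 4 intergenic or pseudogene tiles to which the values below return most often and 2 tiles beside imprinted transcripts. All are printed on the plus strand of GRCm38 with every CpG in capitals.
chr6:37687201-37687300: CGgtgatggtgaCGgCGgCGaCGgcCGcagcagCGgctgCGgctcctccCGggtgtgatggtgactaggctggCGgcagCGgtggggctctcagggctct
chr4:4342901-4343000: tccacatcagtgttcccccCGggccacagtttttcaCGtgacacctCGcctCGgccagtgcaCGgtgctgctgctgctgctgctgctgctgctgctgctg
chr15:49969501-49969600: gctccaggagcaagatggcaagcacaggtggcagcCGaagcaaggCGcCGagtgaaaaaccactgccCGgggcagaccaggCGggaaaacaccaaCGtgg
chr12:20232901-20233000: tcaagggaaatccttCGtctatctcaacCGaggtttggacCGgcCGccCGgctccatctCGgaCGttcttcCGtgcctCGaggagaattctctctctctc
chr2:152686901-152687000: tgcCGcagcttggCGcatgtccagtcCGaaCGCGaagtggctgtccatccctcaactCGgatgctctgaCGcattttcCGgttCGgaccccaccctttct
chr17:12742201-12742300: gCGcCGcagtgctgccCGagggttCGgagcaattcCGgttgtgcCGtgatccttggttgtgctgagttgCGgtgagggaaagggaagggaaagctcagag
The chr6 tile lies inside the annotated span of the pseudogene Ybx1-ps2 and holds 11 CpGs, of which 9 were measured in a control. The chr4, chr15 and chr12 tiles are intergenic, 34322, 431355 and 7789 bp from the nearest annotated transcription start site, and hold 5, 6 and 9 CpGs. The chr2 tile, with 9 CpGs, is centred 198 bp before the start of Mcts2, an imprinted retrogene inside H13. The chr17 tile, with 7 CpGs, lies in an intron of Igf2r, 939 bp past the start of Airn, the imprinted antisense transcript that silences Igf2r in cis.

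Before the values, the libraries need a word. The files held between 68126469 and 216223892 CpG reads per sample, with a median coverage of 12 to 28 reads. The variable tiles were read less deeply than the others, with a median of 218 CpG reads per control and tile against 278 at the other tiles with a control mean of 20 to 80% and 471 at all 42168 tiles, and in control 6 the median was only 110 reads. At 18544 tiles that were unmethylated in the data, the level left over fell into separate bands. It was 1.52% and 1.51% in controls 1 and 2, between 0.67% and 0.677% in controls 3 to 6, between 0.257% and 0.311% in EtOH-exposed 1, 2, 3, 9, 12 and 14, between 0.828% and 1.1% in EtOH-exposed 7, 10, 11, 13, 15 and 16, 1.38% in EtOH-exposed 8, and between 2.4% and 2.53% in EtOH-exposed 4, 5 and 6. These bands are called library groups below, with EtOH-exposed 8 counted in the group of controls 1 and 2. The labels do not say whether they are batches of preparation, and at tiles of 20 to 80% methylation 7 EtOH-exposed samples (2, 4, 5, 6, 8, 9 and 14) lay by a median of 5.08 to 11.5 points under the control mean, whereas the controls stayed within 1.31 points of it.

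The variable tiles were of intermediate methylation. Their median control mean was 54.0%, and 162 of 192 had a control mean between 20 and 80%. In 10 tiles the mean was below 20% and in 20 it was 80% or more. The control SD had a median of 14.3 points, was under 15 points in 111 tiles and at least 20 points in 23, and reached 35.95 points. The distance between the highest and the lowest control ran from 26.5 to 84.5 points, with a median of 38.04 points. At the limit of the rule, the 3 variable tiles with the smallest SD had 12.004, 12.018 and 12.064 points, beside Obsl1, Adamtsl4 and Olfr1269, and the 3 tiles just outside it had 11.938, 11.953 and 11.992 points, beside Klhl30, Gm40226 and Gm34372, so nothing separates the sides. The SD expected from the number of reads alone had a median of 3.40 points, and it was less than 50% of the control SD in 191 of 192 tiles, in tiles chosen for a high control SD. The CpGs of a read are not independent calls: with 1 call per read and its counting variance subtracted, 118 of the 192 kept an SD of at least 12.

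The tile with the largest control SD, chr6:37687201-37687300, was at 49% in control 1, 12.7% in control 2, 96.9% in control 3, 96.2% in control 4 and 97.2% in both control 5 and control 6, with an SD of 35.95 points. The 15 EtOH-exposed embryos with a value lay between 84.2 and 98.6%, with a median of 95.7% and an SD of 3.32 points. Controls 1 and 2 thus stood apart from all the other controls and EtOH-exposed embryos with a value, which were at 84.2% or more. In control 1 the plus strand was at 97.6% over 82 reads and the minus strand at 18% over 128 reads. Control 2 had reads from the minus strand only, at 12.7% over 55 reads. On that strand controls 1 and 2 covered 4 cytosines and controls 3 to 6 covered 9, with levels of 94.9 to 98.4% in the latter. On the 4 cytosines shared by all controls the SD was 42.4 points, and each of the 4 had an SD of at least 12.

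At chr4:4342901-4343000 the spread was shared by the EtOH-exposed embryos. Controls 1 to 6 were at 7.74%, 6.83%, 61.0%, 69.4%, 61.4% and 84.6%, and the EtOH-exposed embryos ran from 6.56 to 78.6%, with a median of 51.9% and an SD of 24.2 points. Controls 1 and 2 were both below 8% and the other 4 were all above 60%, with no value between them. These 2 low samples were also read far more deeply, with 4922 and 5829 CpG reads against 208 to 1400 in controls 3 to 6, and all of their counted reads came from the minus strand. On the minus strand alone controls 3 to 6 were still at 53.2%, 61.3%, 54.2% and 78.3%, and the SD over the 4 cytosines read in all 6 controls was 29.5 points.

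At chr15:49969501-49969600 controls 1 and 2 were at 43.5% and 36.3%, and controls 3 to 6 at 92.7%, 91.0%, 89.7% and 82.7%. It was among the 12 tiles in which every control was measured on the very same cytosines. The EtOH-exposed embryos ranged from 40.6 to 93.8%, with a median of 90.2% and an SD of 16.5 points. The split ran along the strands here too: the plus strand was between 93.9 and 96.7% in all 6 controls, whereas the minus strand was at 32.2% and 31.4% in controls 1 and 2 and between 75 and 89.8% in controls 3 to 6.

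At chr12:20232901-20233000 a single control differed. Controls 1 to 5 lay between 81.4 and 91.8% and control 6 was at 19.4%, on 72 reads against 110 to 3561 in the others. The EtOH-exposed embryos had the largest spread of any variable tile with at least 14 of them measured, an SD of 29.6 points, with values from 10.6 to 92.5% and a median of 81.6%. EtOH-exposed 4, 5 and 6 were at 12.7%, 10.6% and 10.7%, and the other 13 were at 58.4% or more. Both strands were low in control 6, at 30.6% and 8.33%.

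**Figure D1:**
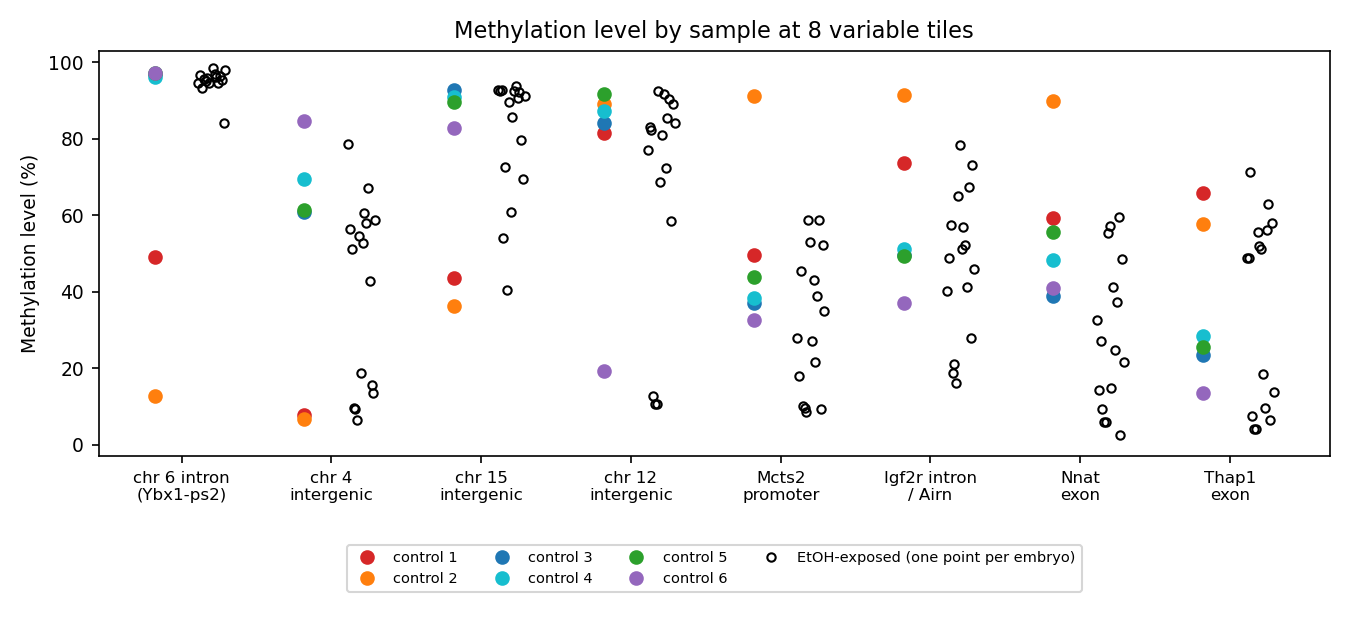
Methylation level (vertical axis, percent) at 8 variable tiles (horizontal axis). Filled circles are the 6 controls, coloured by replicate, and open circles the EtOH-exposed embryos. The word intron at the chr6 tile means only that it lies inside the span of the pseudogene Ybx1-ps2. At the chr6 and chr15 tiles controls 1 and 2 sit below all other controls, at the chr12 tile control 6 does, and at the Mcts2, Igf2r and Nnat tiles control 2 is the highest at 90.0 to 91.5%.

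The other tiles among the 10 with the largest control SD behaved in the same ways. At chr5:136156801-136156900, in an intron of Orai2, which encodes a subunit of a store-operated calcium channel, controls 1 and 2 were at 70.9% and 20% and the others between 92.3 and 95.9%. This tile was fully soft-masked as repeat, a 50-base side of the tile occurred 118 times in the genome, and control 2 had only 30 reads. At chr10:84392401-84392500, in an intron of the kinase gene Nuak1, controls 1 and 2 were at 30.7% and 12.6% and the others between 72.4 and 77%. At chr11:79686701-79686800, in an intron of Rab11fip4, an effector of the Rab11 small GTPases, they were at 22.6% and 34.2% against 78.1 to 82.5%. In these 3 introns the EtOH-exposed SD was 6.91, 6.43 and 9.60 points. The controls were not all read on the same cytosines: at Nuak1 the control SD was 11.4 points on the only cytosine they shared, against 27.9 points for the tile, and at Rab11fip4 they shared none.

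The remaining ones had a wider spread among EtOH-exposed embryos. At chr1:185710501-185710600, intergenic and repeat-masked, controls 1 and 2 were high, at 79.5% and 93.9%, over 18.3 to 40.4% in the others, and the EtOH-exposed SD was 19.96 points over 15 embryos. At chr15:100613401-100613500, between Dazap2 and C330013E15Rik, controls 1, 2 and 5 were at 6.88%, 6.97% and 14.8% and controls 3, 4 and 6 at 47.8%, 53.9% and 64.7%, with an EtOH-exposed SD of 18.4 points. At chr12:96511301-96511400, a masked tile with 37 copies of a 50-base side, controls 1, 2 and 6 were at 37.7%, 38% and 37.3%, controls 3 to 5 between 73.7 and 92.3%, and the EtOH-exposed embryos between 20.9 and 93.4%, with an SD of 27.3 points. At the chr15 and chr12 tiles just named no cytosine was covered in all controls, and at the latter controls 1 and 6 were read on the minus strand only and control 5 on the plus strand only.

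Which controls stood apart was far from even. When each tile was divided at the largest gap between its sorted control levels, control 6 was alone on 1 side in 59 tiles, controls 1 and 2 together in 54 and control 2 alone in 41, whereas control 1 was alone in 8, control 3 and control 5 in 2 each and control 4 in 1. Controls 1 and 2 were both above or both below the other 4 in 110 of the 192 tiles, 57.3%, above in 55 and below in 55. At the 2539 other tiles with a control mean of 20 to 80% they did so in 24.5%. Over all 42168 tiles, with a median control level of 1.31%, they did so in 42%, above in 16130 and below in 1580. The other 14 pairs of controls did so in 1.04 to 26.6% of the variable tiles. Controls 1 and 2 are also the controls of the same library group, and the other 4 make up another. The share of a tile's control variance that lay between these groups had a median of 54.2% at the variable tiles and 20.4% at the other intermediate tiles, and of 39.65% over all 42168 tiles. The groups were defined by the level at unmethylated tiles, and most of the 42168 were of low level. The 42% and 39.65% over all tiles are therefore no independent comparison. Within the remaining library group the spread was smaller. Over controls 3 to 6 the SD had a median of 9.46 points and reached 12 points in 81 tiles. Over controls 3 to 5, without the shallow control 6, the median was 4.36 points and 18 tiles reached the limit. At the other intermediate tiles these medians were 4.38 and 3.21 points. Controls 1 and 2 differed by a median of 9.72 points, against 4.82 points there. The rule selected on these levels, and the controls left out stood apart most often, so nothing is read from the smaller spread. Coverage scaled by library depth differed between controls 1 and 2 and controls 3 to 6 by a median of 0.077 on the log2 scale at the variable tiles. This is a signed median, in which higher and lower coverage cancel. The range of that coverage over the 6 controls had a median of 2.56, against 1.83 at the other intermediate tiles and 2.09 over all 42168. Litter and preparation cannot be told apart in this split, since the labels give neither.

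**Figure D2:**
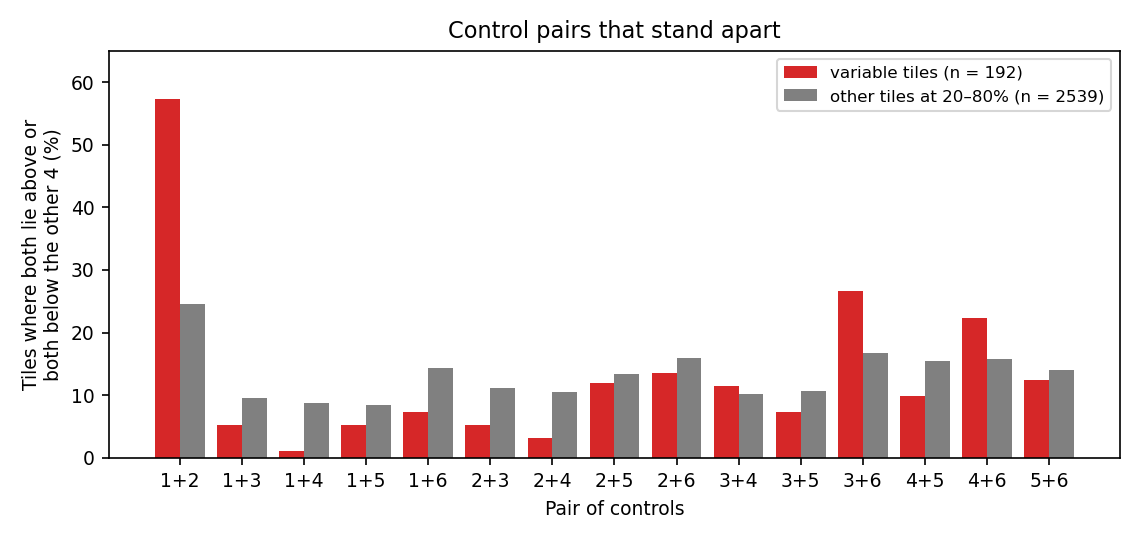
Share of tiles (vertical axis, percent) in which both controls of a pair lie above or both below the other 4, for each pair of control replicates (horizontal axis); red bars are the variable tiles, grey bars the other tiles at 20 to 80% methylation. Controls 1 and 2 reach 57.3% of the variable tiles, and controls 3 and 6 come next with 26.6%.

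The EtOH-exposed samples, whose levels the rule did not use, were compared with this split. In 125 variable tiles the mean of controls 1 and 2 was at least 15 points away from the mean of controls 3 to 6, higher in 57 and lower in 68. EtOH-exposed 8, the only EtOH-exposed sample in the library group of controls 1 and 2, lay on the side of controls 1 and 2 in 77 of its 108 tiles with a value, 71.3%. This was the highest share of the 16. EtOH-exposed 15, 3, 9 and 2 followed with 57.5%, 57.4%, 53.8% and 48.7%, and EtOH-exposed 1, 16 and 11 had the lowest shares, 7.2%, 8.94% and 11.97%. The share of a tile's variance that lay between library groups was also taken over all EtOH-exposed samples. Its median was 41.6% at the variable tiles, below the 47.3% of the other intermediate tiles. Over all 42168 tiles it was 76.96%. The groups were defined by the level at unmethylated tiles, and most of the 42168 were of low level, so that value is no independent comparison. In 28 of the 192 variable tiles controls 1 and 2 lay outside the range of all other samples with a value. The count was 84 of the 2539 other intermediate tiles and 787 of all 42168 tiles. The variable tiles were chosen on the control levels, so nothing is read from this.

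The depth of reading moved with the outlying level in part of the tiles. Reads were first scaled by each library's own depth. The control farthest from the median level had at most 50% of the median coverage of the other controls in 60 variable tiles, 31.2%, and at least 200% in 44 tiles, 22.9%, compared with 21.6% and 9.57% at the other intermediate tiles. Its part in the spread was not tested. The farthest control was control 2 in 91 variable tiles, control 6 in 68, control 1 in 23, and control 3, 4 or 5 in 5, 1 and 4. At the 2539 other intermediate tiles it was control 6 in 815, control 2 in 716, control 1 in 300, and control 3, 4 or 5 in 222, 208 and 278.

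A tile's level pools the cytosines that a sample happened to cover, and samples did not always cover the same ones. Only 91 of the 192 tiles held a cytosine, that is a given CpG on a given strand, that was covered at 10 or more in all 6 controls. In 12 tiles all controls rested on an identical set. On the cytosines covered in all controls the SD was at least 12 points in 69 of the 91. Among the 81 tiles with 2 or more such cytosines, every one had an SD of at least 12 points in 30, a single one had it in 24 and none in 7. The intronic tile of Zbtb48, which encodes a telomere-binding zinc finger protein, shows what this can do. At chr4:152020101-152020200 the controls were at 97.7%, 96.7%, 82.0%, 89.4%, 89.0% and 59.4%, an SD of 14.1 points, but over the 3 cytosines that all of them covered the SD was 2.53 points. Controls 1 and 2 had reads on the plus strand only, and in controls 3 to 6 the minus strand was the lower of the strands. When the whole rule was applied to such shared cytosines alone, 91 of 25530 tiles were variable, 0.356%, of which 56 were among the 192.

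The strands of a tile were also compared, although both strands of a fragment can come from the same duplex. With at least 20 CpG reads on each strand, the level of the plus and minus strand of a variable tile differed by a median of 8.49 points within an EtOH-exposed embryo, while the same strand differed by 8.94 points between EtOH-exposed embryos. In the controls these medians were 8.74 and 10.01 points. At the other intermediate tiles they were 6.795 and 7.58 points in the EtOH-exposed embryos and 6.94 and 6.09 points in the controls. In 31 variable tiles both strands were covered in all controls, and both had an SD of at least 12 points in 20 of these and 1 of them in 11.

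Tiles that varied between controls also varied more between EtOH-exposed embryos. The EtOH-exposed SD had a median of 11.6 points, with quartiles of 8.02 and 15.1, and was at least 12 points in 86 of the 192 tiles, 44.8%. The background share was 1.75% of all 42168 tiles, and 13.9% of the 2539 other tiles at 20 to 80%, where the median was 7.24 points. The median control level of all 42168 tiles was 1.31%, so the intermediate tiles are the closer comparison. The SD of the EtOH-exposed embryos was above that of the controls in 46 of the variable tiles. The control SD was chosen to be high, so nothing is read from this. At the other intermediate tiles the EtOH-exposed SD was the larger in 1872 of 2539. Those were left with a control SD under 12 points by the same rule, so nothing is read from that count either.

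Below the limit the EtOH-exposed SD also differed by class of control SD. Over tiles at 20 to 80% the median EtOH-exposed SD was 5.30 points where the control SD was under 2 points, 6.27 at 2 to 4, 6.83 at 4 to 6, 7.90 at 6 to 8, 8.68 at 8 to 10 and 10.3 at 10 to 12. It went on to 10.7 points at a control SD of 12 to 15, 13.4 at 15 to 20 and 15.3 above. The share of tiles with an EtOH-exposed SD of at least 12 climbed from 4.11% in the first of these classes to 66.7% in the last. After the median shift of each sample was subtracted, the same medians ran from 4.73 to 16.2 points, and 35.4% of the variable tiles against 5.91% of the other intermediate tiles had an EtOH-exposed SD of 12 or more. Among tiles with at least 100 reads in every sample with a value the medians ran from 5.01 to 18.3 points, though only 3 tiles were left in the last class. The 17 tiles at 12 to 15 lay below the 34 at 10 to 12 there, with medians of 9.41 and 9.85 points and shares of 23.5% and 29.4%. Tiles share libraries and depth, so this is a description across tiles.

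**Figure D3:**
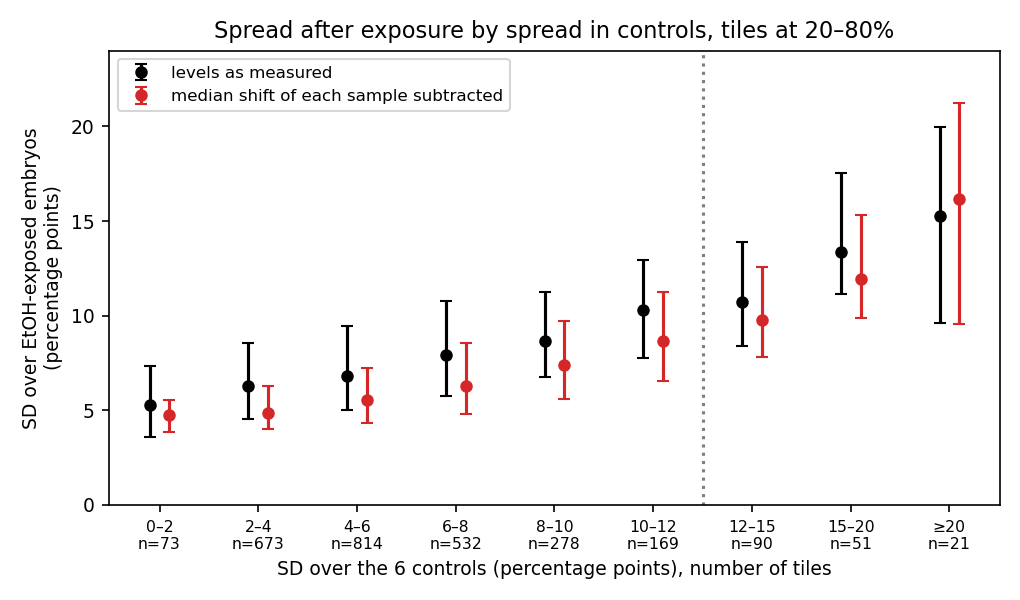
SD over the EtOH-exposed embryos (vertical axis, percentage points) in classes of the SD over the 6 controls (horizontal axis, with the number of tiles), for tiles at 20 to 80% methylation; points are medians and bars span the quartiles, black for levels as measured and red after the median shift of each sample was subtracted. The dotted vertical line marks the control SD limit of 12 points, and the black medians climb from 5.30 to 15.3 points.

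The 3 libraries EtOH-exposed 4, 5 and 6 carried part of that spread. They lay below all other EtOH-exposed samples in 23 of the 178 variable tiles where all 3 had a value, 12.9%, compared with 20.9% at the other intermediate tiles. Without them the share of variable tiles with an EtOH-exposed SD of at least 12 was 37.0%, against 7.37% at the other intermediate tiles. With only the 9 EtOH-exposed samples whose median lay near the controls, 51 tiles, 26.6%, still reached it, against 3.47% of the other intermediate tiles and 0.424% of all.

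Other tiles with a large EtOH-exposed SD lay in genes. At chr8:26158401-26158500, in an exon of Thap1, which encodes a DNA-binding zinc finger protein linked to dystonia, controls 1 and 2 were at 65.8% and 57.8% and controls 3 to 6 at 23.6%, 28.4%, 25.6% and 13.5%. The EtOH-exposed embryos ran from 4.06 to 71.2%, with a median of 48.9% and an SD of 24.9 points. They fell into a high set between 48.9 and 71.2% and a low set at 18.6% or less, with none between. At chr17:47872501-47872600, in an intron of the forkhead gene Foxp4, the controls ran from 57.8 to 93.0% and the EtOH-exposed embryos from 12.2 to 91.1%. At chr14:55827101-55827200, in a coding exon of Nfatc4, a calcium-responsive transcription factor gene, controls 1 and 2 were at 42.1% and 34.8%, the others between 6.82 and 17.9%, and the EtOH-exposed SD was 22.7 points over 14 embryos. The controls shared no covered cytosine at the Foxp4 and Nfatc4 tiles, and at Nfatc4 control 2 was read on the plus strand only and controls 3 and 4 on the minus strand only. At chr7:116433501-116433600, in an intron of Pik3c2a, a lipid kinase gene, the controls overlapped the EtOH-exposed embryos at 40.6 to 76.2% against 11.2 to 79.2%; a 50-base side of the tile occurred 26 times in the genome.

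Several variable tiles lay at imprinted genes. Of 30 listed genes, 27 imprinted and 3 known as hosts of metastable epialleles, 15 had a tile with enough coverage within 5 kb of a start site, 10 had one at 20 to 80%, and 7 had a variable tile: Gnas with 4, Mcts2 with 3, Plagl1 and Zrsr1 with 2 each, and Airn, Grb10 and Nnat with 1 each. The agouti gene and Cdk5rap1 had no such tile, and the single tile at Axin1 had a control SD of 0.508 points. That tile was taken only by its distance to a start site. No known insertion was examined, so nothing about metastable epialleles is read from it. The limits of 30 to 70% for the next count were chosen after the values were seen. Of 32 tiles near the imprinted genes with a control mean of 30 to 70%, 14 were variable, 43.8%, compared with 99 of 1440 other tiles in that range, 6.88%. Their median control SD was 10.6 points, and it was 6.00 points at the others. Several of these tiles neighbour each other, so they are fewer than 32 separate regions.

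Mcts2 encodes a translation re-initiation factor and is transcribed from the paternal copy, whose promoter is unmethylated. At chr2:152686901-152687000 controls 1 to 6 were at 49.7%, 91.3%, 37.2%, 38.4%, 43.9% and 32.7%. Control 2 stood far above the others, on 265 reads, with 95% on the minus and 85.7% on the plus strand. All controls were measured on the same 15 cytosines and each of these had an SD of at least 12 points. The EtOH-exposed embryos ran from 8.72 to 58.9%, with a median of 31.5% and an SD of 18.3 points. The adjoining tile before it had control levels of 51.0%, 80.8%, 37.3%, 38.6%, 44.1% and 33.8%. The tile at the start site had 48.1%, 64.1%, 31.2%, 39.6%, 47.9% and 31.3%, so control 2 was the highest in all 3. Control 2 had the fewest reads of the controls at chr2:152686901-152687000 and at the start-site tile, 265 and 64. In the adjoining tile before them it had 640 reads, more than the 396 of control 6.

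Control 2 was also highest at the Airn and Nnat tiles. At chr17:12742201-12742300 the controls were at 73.7%, 91.5%, 49.7%, 51.2%, 49.4% and 37.1%, and the EtOH-exposed embryos ran from 16.3 to 78.4% with a median of 49.9%. Nnat encodes neuronatin, a proteolipid of differentiating neurons. In its coding exon, at chr2:157560401-157560500, the controls were at 59.3%, 90.0%, 38.9%, 48.3%, 55.7% and 41.0%, and the EtOH-exposed embryos between 2.49 and 59.6%. At the Zrsr1 promoter, chr11:22971901-22972000, control 2 was at 75.8% and the others between 43.9 and 58.0%. At the Airn, Nnat and Zrsr1 tiles control 2 had the fewest reads of the controls, 71, 90 and 161. The Gnas cluster, which encodes the stimulatory G protein subunit and several imprinted transcripts, went both ways. At chr2:174299101-174299200 control 2 was the highest, at 57.7% against 28.4 to 57.5%, with the most reads of the controls, 1274. At chr2:174300401-174300500 controls 1 and 2 were the highest, at 70% and 65.3% against 36.5 to 47%, with the fewest reads, 160 and 173. At chr2:174299601-174299700 control 2 was the lowest, at 16.7% against 42.1 to 57.1%, and at chr2:174328501-174328600 it was the lowest again, at 15.4% against 26.2 to 52.8%. No cytosine of these 4 Gnas tiles was covered in all 6 controls, so their controls were not read on the same set of cytosines. At chr2:174300401-174300500 and chr2:174328501-174328600, 1 CpG was covered in all controls, but not on the same strand in all of them. Control 6 was the lowest at the zinc finger gene Plagl1, with 21.4% and 18.2% in the neighbouring tiles. The other controls were there between 47.2 and 56.1% and between 43.9 and 65.4%. These levels of control 6 rested on 56 and 99 reads, all of the minus strand. Control 6 was also the lowest at Grb10, an adaptor that restrains growth factor signalling, with 15% against 35.4 to 62.7%. At Grb10 no cytosine was shared either: control 6 was read on 8 plus-strand cytosines, and the other controls on 2 of the plus and 1 of the minus strand.

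Over all 32 imprinted tiles control 2 was the highest control in 16 and control 6 the lowest in 16. The median level of the 32 tiles was 51.7%, 57.9%, 46.5%, 48.5%, 47.6% and 37.6% in controls 1 to 6. It lay between 36 and 57.3% in 11 of the EtOH-exposed embryos, and was 28.4%, 20.9%, 19.1%, 16.9% and 24.4% in EtOH-exposed 2, 4, 5, 6 and 14. Those are among the 7 samples that lay lower at intermediate tiles in general: in EtOH-exposed 4, 5 and 6 the median of all tiles at 20 to 80% was 42.9 to 44.2%, against 59.9 to 62.7% in the controls. Of the 14 variable imprinted tiles 12 had an EtOH-exposed SD of at least 12. This was not counted at the other imprinted tiles, so the 12 are not read as particular to the variable ones. Some listed genes had tiles at 20 to 80% but none variable. Their median EtOH-exposed SD was 13.8 points at Kcnq1ot1 and 13.2 at Peg13, but 5.27 at Slc38a4. All 8 of the variable imprinted tiles that shared cytosines among controls kept a control SD of at least 12 on them.

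**Figure D4:**
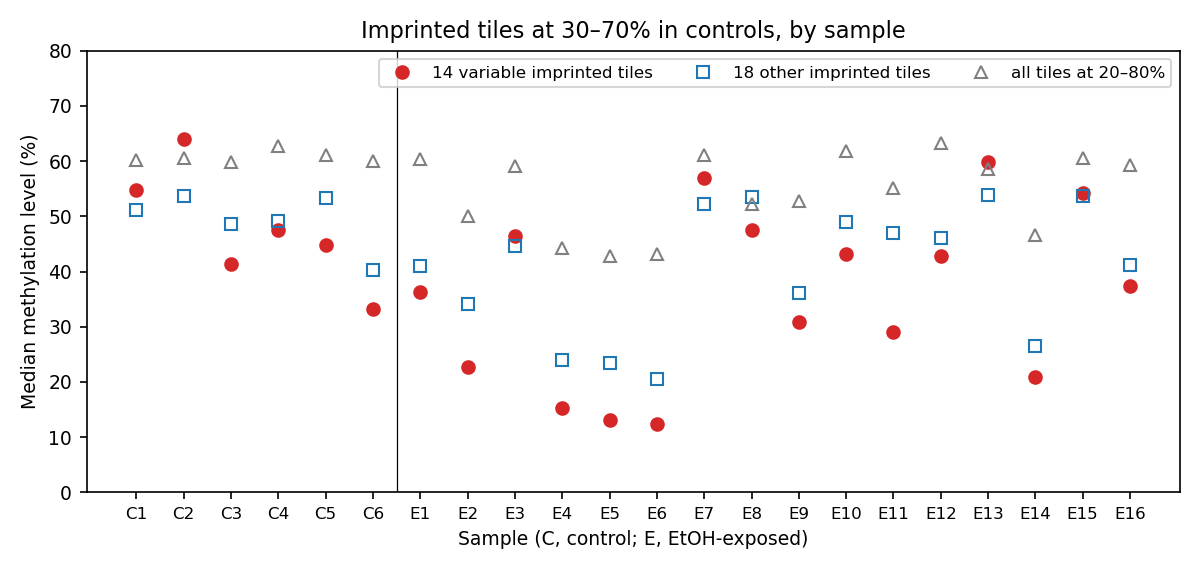
Median methylation level (vertical axis, percent) in each control (C) and EtOH-exposed (E) sample (horizontal axis) of the 14 variable imprinted tiles (red circles), the 18 other imprinted tiles with a control mean of 30 to 70% (blue squares) and all tiles at 20 to 80% (grey triangles). Control 2 has the highest red point at 64.1% and E6 the lowest at 12.3%.

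By position the variable tiles were unlike the tiles that could have been chosen, and in most shares nearer to the other intermediate tiles. No test was run on this. Promoters, from 1000 bp before to 100 bp after a RefSeq start site, held 19 of them, 9.9%, compared with 37.9% of the 42168 tiles and 8.51% of the other intermediate ones. Coding exons held 48, 25%, introns 56, 29.2%, intergenic sequence 58, 30.2%, and UTRs or non-coding exons 11. At the other intermediate tiles these shares were 20.6%, 36.3%, 27.02% and 7.64%. Introns here include any base of a gene or pseudogene span that was not marked as promoter or exon. The median distance to a start site was 8842 bp, against 434 bp at all and 7940 bp at the other intermediate tiles. By chromosome they made up between 0.16% (chromosome 3, 3 tiles) and 0.655% (chromosome 15, 13 tiles) of the tiles with enough coverage. Beside clustered gene families, 1 was nearest to a clustered protocadherin gene, of 30 such tiles, 6 to Zfp genes of 663, 3 to olfactory receptor genes of 100, and none to Vmn receptor genes of 75.

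**Figure D5:**
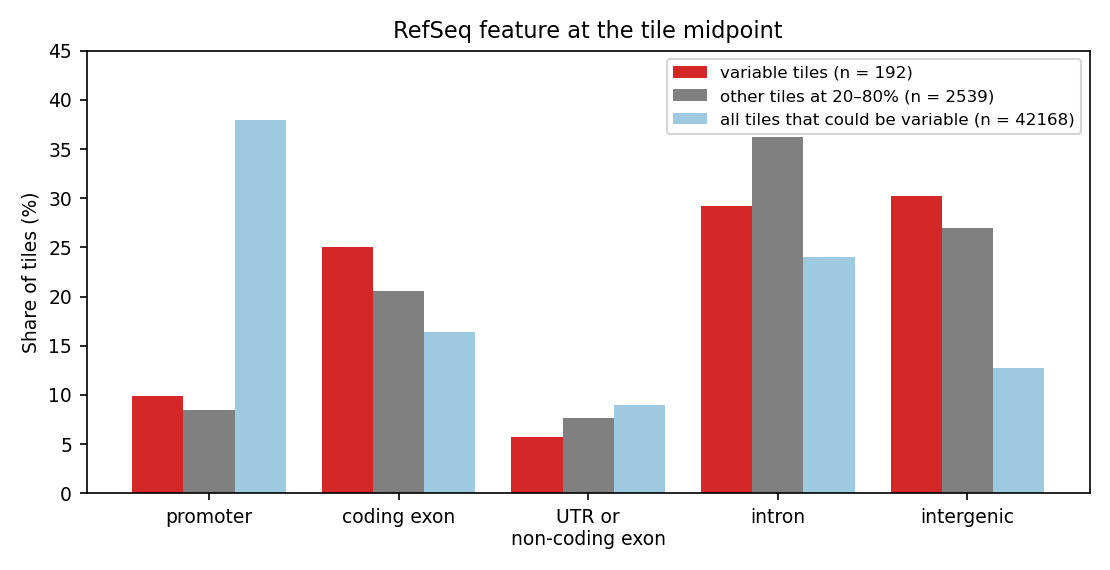
Share of tiles (vertical axis, percent) by the RefSeq feature at the tile midpoint (horizontal axis) for the variable tiles (red), the other tiles at 20 to 80% methylation (grey) and all tiles that could be variable (blue). Promoters hold 9.9% of the variable tiles and 37.9% of all.

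Repeats made up a larger share of the variable tiles than of the other intermediate tiles. At least 50% of the bases were soft-masked in 34 of them, 17.7%, against 5.75% of the other intermediate tiles and 7.99% of all. The left or right 50 bases occurred elsewhere in the genome in 33, 17.2%, against 5.2% and 6.02%. Reads of such copies cannot always be told apart, and its part in the spread was not tested. GC content was 61% at the median, against 58% and 65%, and a tile held a median of 5 CpGs against 4 and 8. Of the 1006 CpGs measured in the variable tiles 254, 25.25%, were those of the CCGG sites themselves, compared with 26.3% at the other intermediate tiles.

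The promoter tiles had control means from 8.94 to 82.9%, and they are named here after their values were seen. Apart from the imprinted Mcts2, Plagl1 and Zrsr1, they belonged to Mir1928, Mir671, Myo1h, Scarb1, Asl, Cand2, Polg, Otop2, Sycp2l, Rasa1, Ttll1, Pced1b, Ephb3 and Acat3. At Rasa1, which encodes a GTPase-activating protein for Ras, chr13:85289601-85289700 was at 33.2% in control 1 and 59.5% in control 2 and at 1.22% or less in the other 4, with an EtOH-exposed SD of 2.15 points, the highest of those embryos being at 7.55%. At Cand2, chr6:115774501-115774600 was at 47.4% in control 6, on 133 reads, and at 1.75% or less in the others. Both promoters were otherwise unmethylated in the controls, and EtOH-exposed 16 was at 15.5% at Cand2.

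Neighbouring tiles were examined next. The 192 tiles formed 182 clusters when tiles within 1000 bp were joined, 8 clusters held more than 1, and 2 held 3, at Mcts2 and Gnas. Other clusters lay at Plagl1, at Zrsr1 and in an intron of Kcnq1, where chr7:143340601-143340700 and the tile adjoining it had control levels of 26.7 to 63.3% and 21.7 to 56.1%, with no cytosine shared by all controls. Of 65 adjoining tiles with enough coverage 12 had a control SD of at least 12, 18.5%, which counts each of the 6 adjoining pairs of variable tiles in both directions, and 20 had an EtOH-exposed SD of at least 12, 30.8%. For neighbours of the other intermediate tiles these shares were 3.56% and 11.2%, and for neighbours of all tiles 0.245% and 0.839%. Adjoining tiles are mostly read from the same fragments: only 2 of the 65 shared no MspI fragment. Up to 1000 bp away and on another fragment, 10 of 107 neighbours, 9.35%, had a control SD of at least 12. An EtOH-exposed SD of at least 12 was found in 27, 25.2%. These shares were 5.01% and 10.2% for the other intermediate tiles. The 10 count each pair of variable tiles in both directions, and all lay in the clusters at Mcts2, Gnas and Zrsr1.

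Exposure was tested last, tile by tile, over all 114430 tiles. The methods name MethylKit with Benjamini-Hochberg adjustment, and a logistic likelihood-ratio test with that adjustment was used here. In it a tile was called a DMR at q below 0.01 and a difference, weighted by coverage, of 10 points or more. This called 43 of the 192 variable tiles, 22.4%, against 1.14% of all tiles and 7.8% of the other intermediate tiles. Of the 192, 40 were called lower after EtOH, where 1.08% of all tiles were, and 3 were called higher, where 0.0516% of all tiles were. Lower calls made up 40 of 43 here and 1240 of 1299 over all tiles, so the direction was that of the calls in general. With the 9 EtOH-exposed samples near the controls alone it called 18, 9.38%, against 233 of all 114430 tiles and 17, 0.67%, of the other intermediate tiles. Of the 18, 6 were lower and 12 higher. The direction of the calls over all tiles was not counted in this setting, so nothing is read from that split. The logistic test takes no account of the spread between embryos, on which the tiles were chosen. The spread beyond counting error, given as the Pearson dispersion within groups, where 1 is counting error alone, had a median of 17.8 at the variable tiles and 7.65 at the other intermediate tiles. With that dispersion in a quasi-binomial F test 0 variable tiles were called, and 0% of all tiles; 14 of the 192 had an unadjusted p under 0.05. With limma on log2 ratios of methylated to unmethylated reads 0 were called as well, and 0% of all, and 20 had an unadjusted p under 0.05. The share of other tiles at that unadjusted p was not counted for either test, so nothing is read from the 14 and the 20. Across the variable tiles the mean level after EtOH was lower in 141, with a median difference of -4.60 points, and at the other intermediate tiles it was lower in 2203 of 2539, with a median of -4.12 points.

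Weighting by coverage changed the sign at a tile described above. At chr4:4342901-4343000, 1 of the 3 called higher, the coverage-weighted level was 20.8 points higher after EtOH, with controls 1 and 2 low and read most deeply, while the unweighted mean was 48.5% in controls and 40.9% after EtOH. At chr2:174300401-174300500, in a coding exon of Gnas, the level differed by -20.3 points after EtOH weighted by coverage and by -20.1 points unweighted. Controls were between 36.5 and 70% and the EtOH-exposed embryos between 1.51 and 75.2%, so the groups overlapped.

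Few tiles kept a wide SD under all of the following conditions. The control SD was at least 12 points whichever control was left out in 41 tiles, and 27 of these also had an EtOH-exposed SD of at least 12. In 9 of them the shared cytosines alone gave a control SD of at least 12 too. These 9, put together after the values were seen, were chr1:74206701-74206800 in the promoter of Mir1928, chr1:185710501-185710600, chr4:4049201-4049300, chr4:4342901-4343000, chr4:147219601-147219700 in an intron of Zfp978, chr6:100467901-100468000, chr8:26158401-26158500 in Thap1, chr15:49969501-49969600 and chr17:12742201-12742300 in Igf2r. Strand, depth and repeats were not among the conditions. The chr15 tile differed on the minus strand only, and at chr4:4342901-4343000 controls 1 and 2 were read deeply and on the minus strand only. The tile chr1:185710501-185710600 was fully soft-masked, and its controls shared 1 cytosine. In all 9 controls 1 and 2 lay on the same side of the other 4 controls, but asking for a wide SD whichever control is left out removes tiles where a single control stands apart, so nothing is read from this. At chr6:100467901-100468000, for example, they were at 87.4% and 90.3% and controls 3 to 6 between 39 and 53.3%, and the EtOH-exposed embryos spread over the same range, from 41.1 to 92.4%.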

How the data were processed

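Reduced representation bisulfite libraries of 6 control and 16 EtOH-exposed forebrains were used, 1 embryo each. The submitters' processing notes name Trim Galore 0.3.3, BSMAP 2.90 and the mm10 build, and the methods give MethylKit 1.8.1 in R 3.5.0. Per the file headers, the authors deposited for each cytosine of a CpG and strand the coverage as a count of reads and the methylated share as a percentage, with no normalization. Methylated reads were recovered as coverage times percentage, rounded to whole reads.

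Cytosines with a coverage of 10 or more were pooled over both strands into tiles of 100 bp, and the level of a tile is the share of methylated CpG reads. A tile was analysed if it held 2 or more such CpGs in 5 or more samples of each condition. Strands were compared where each had at least 20 CpG reads, a limit stricter than planned. The genome and annotation were GRCm38 from RefSeq, the same assembly as mm10. Exposure was tested by a logistic likelihood-ratio test, a quasi-binomial F test and limma on log2 ratios, each with Benjamini-Hochberg adjustment over all analysed tiles, and the scripts were tested on simulated data. Depth is given in the report. Calls of a read, and PCR copies of a molecule, which carry no molecular identifiers, are not independent, so counting errors are lower bounds. Replicates are separate embryos, but litters are shared, and p-values treat them as independent.

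The rule for tiles named in the text took the 10 largest control SDs, the 10 largest EtOH-exposed SDs with at least 14 values, at most 1 per cluster, the 5 largest clusters, members within 5 kb of listed genes, and 3 tiles on either side of the limit. The members and gene lists were chosen with earlier results of these data known. The library groups, the window of 30 to 70%, the set of 9 tiles and the promoters named were chosen after the values were seen. Other coverage minima, normalizations, omitted samples and tests were tried. Python 3.11.15, numpy 2.4.6, pandas 2.3.3, scipy 1.17.1, matplotlib 3.10.9, R 4.3.3 and limma 3.58.1 were used.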

Additional observations from a re-analysis of the deposited data

Results flagged for a closer look

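Among the named tiles, 6 held a control that lay far from the other 5. Its gap to the nearest neighbour, divided by the range of the 6 controls, was larger than Dixon's 95% critical value for 6 samples. Control 2 was at 80.8% and 91.3% in the adjoining Mcts2 promoter tiles chr2:152686801-152686900 and chr2:152686901-152687000, above the others. It was at 16.7% in the Gnas tile chr2:174299601-174299700 and at 20% in the Orai2 intron at chr5:136156801-136156900, below the others. The controls of the Gnas tile shared no covered cytosine. Control 6 was at 21.4% in the Plagl1 promoter tile chr10:13090801-13090900 and at 19.4% at chr12:20232901-20233000, below the others. Chance alone gives such a gap in about 1 of 20 groups of normally distributed values, and these tiles were chosen for a wide spread between controls. Over all variable tiles 45 of 192 held such a control. That share was not counted at other tiles, so the 45 are not read as an excess over chance.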

How the results depend on the processing

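The number of variable tiles stayed within 1.5 times of 192 in 4 of 12 alternatives other than leaving out a control. It was 299 at a minimum coverage of 5 (156 of the 192 among them), 73 at 20 (60 shared), 82 with at least 3 CpGs, 55 with at least 100 reads per control, 94 without the CpGs of CCGG sites (71 shared), 91 on cytosines covered in all controls, 118 after subtracting the counting variance with 1 call per read, and 79 in controls 1, 3, 4 and 5 alone. Without a control it ran from 141 (without control 2) to 264 (without control 5), but the totals hold other tiles: 119 of the 192 still varied without control 2 and 124 without control 6. The last 3 alternatives, and the use of controls 3 to 6 alone (134, with 81 of the 192), were chosen after seeing the data. The 86 variable tiles with an EtOH-exposed SD of at least 12 became 51 without EtOH-exposed 2, 4, 5, 6, 8, 9 and 14, 28 of 73 at a minimum coverage of 20 and 45 of 94 without CCGG sites, and 84 to 95 without a single EtOH-exposed sample.

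The 43 DMR calls became 0 with the quasi-binomial F test and 0 with limma, with 14 and 20 tiles at an unadjusted p under 0.05, a share not counted at other tiles. The 43 calls became 4 at a difference of at least 20 points (101 over all tiles, against 1299), 19 at a minimum coverage of 20 (553) and 18 without the same 7 EtOH-exposed samples (233), the last chosen after seeing the data. Leaving out a control gave 41 to 52, and an EtOH-exposed sample 36 to 50. With the replicate number as a replicate block 43 were called, and 1249 over all tiles. That test used only samples whose number occurs in both groups, so most EtOH-exposed samples did not enter its p-value. The difference was still taken from all samples. Same-numbered samples did not deviate together, with correlations from -0.13 to 0.25, so the numbers do not pair the samples.

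The share of neighbouring tiles that also vary, 18.46%, was 0% for the 2 adjoining tiles that share no MspI fragment, 9.524% up to 500 bp and 9.346% up to 1000 bp away on another fragment, the last 2 chosen after seeing the data. The cause of these changes was not tested. All variable neighbours counted on another fragment lay in the clusters at Mcts2, Gnas and Zrsr1. Fewer tiles were eligible at higher coverage, and control 6, with a median of 110 reads per variable tile, limits the depth.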
